A study of Sus scrofa with 23 samples.

Results

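VEGFA, EGLN1, KDM3A, P4HA2 and CA12 are 5 genes whose transcripts are known to rise when oxygen is scarce. They were followed in pig joint cartilage through every probe set that the platform annotation gives exactly 1 of these symbols, which were 12 probe sets: 4 for VEGFA, 3 for EGLN1, 2 for KDM3A, 2 for P4HA2 and 1 for CA12. The 5 genes stand among 6765 genes that the annotation names with a single symbol. Of the 12 probe sets, 10 were bright enough to be tested; EGLN1 Ssc.6432.2.S1_at and KDM3A Ssc.22754.1.A1_at had a mean under the filter at 5.30 on the log2 scale.

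The study compared cartilage of animals affected and not affected by osteochondrosis, a disorder of the growing joint in which the change from cartilage to bone is disturbed. All animals came from a cross of the Duroc and Pietrain pig breeds and were taken as affected and non-affected sibs. Cartilage came from the medial part of the humeral condyle in the elbow or from the medial femoral condyle in the knee, which gives 4 groups. Total RNA was hybridised to the Affymetrix Porcine Genome Array, on which a probe set is a group of short oligonucleotides read as 1 value. The 23 arrays were counted as 21 samples, because 2 pairs of arrays within a group were nearly identical and were averaged. These were 6 non-affected and 7 affected humeral samples, and 4 non-affected and 4 affected femoral samples. The labels do not tell which animals were sibs or that each array was a separate animal, so a p-value here measures no more than the spread among these samples, which may in part be technical. In a bulk sample of this kind, fewer cells of a type and less RNA per cell cannot be told apart.

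Cells sense oxygen through prolyl hydroxylases such as the product of EGLN1, which mark the alpha subunits of hypoxia-inducible factor (HIF) for degradation while oxygen is present. When oxygen falls, HIF persists and switches on genes for new vessels, glycolysis and matrix processing, and EGLN1 itself, which closes a feedback loop. Articular cartilage has no vessels of its own and its chondrocytes live at low oxygen, while growth cartilage near the bone is invaded by vessels in response to VEGFA.

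The deposited values are on a log2 scale with a floor at 4, and neither the number of cells nor a depth stands behind them, so the number of arrays limits the precision. Arrays of both sites differed in a way that involves no pig transcript. The bioB, bioC and bioD hybridisation controls, bacterial sequences added to each sample, lay between 9.59 and 9.97 in the humerus and between 10.99 and 11.18 in the femur. The cre hybridisation controls lay between 13.54 and 13.72 and between 13.85 and 14.06. The dap, lys, phe and thr controls overlapped, from 8.63 to 9.45 and from 9.03 to 9.4. The array medians, taken over all probe sets and thus mostly over pig transcripts, lay between 6.18 and 6.33 and between 6.05 and 6.17. Site and array handling can therefore not be told apart, whereas comparisons of affected with non-affected cartilage lie within a site. Of 14 listed chondrocyte markers, 6 were on the array, and their summed level lay between 14.66 and 15.48 in all 21 samples. The labelled tissue thus carried the transcripts of cartilage in each group, among them COL2A1, the main collagen of cartilage, and ACAN, its main proteoglycan. Markers of other cells differed more. For macrophages (8 of 11 markers on the array) the summed level lay between 9.13 and 12.84 in non-affected humerus, 10.93 and 13.66 in affected humerus, 10.14 and 12.19 in non-affected femur, and 7.85 and 10.38 in affected femur, where TYROBP, FCER1G and AIF1 each had a sample at the floor.

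VEGFA encodes the growth factor that draws vessels into tissue, and its 4 probe sets did not give a single pattern. Ssc.15740.1.S2_at varied widely in every group. In non-affected humerus it had a lowest value of 10.21, a median of 11.35 and a highest of 13.31, and in affected humerus 9.07, 11.46 and 12.50. The 4 non-affected femoral samples had 11.95, 11.79, 10.32 and 12.63, and the 4 affected ones 11.82, 12.92, 12.99 and 12.54. All 4 groups overlapped, although 3 of the affected femoral samples were above 12.5. From the lowest sample, humerus affected 2, to the highest, humerus non-affected 5, this probe set spanned 4.24 on the log2 scale, or 18.9-fold, and its SD of 1.21 over the 21 samples was above that of 97.8% of the probe sets tested.

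The VEGFA probe set Ssc.15740.2.S1_a_at followed the same course at its own, lower signal. Its lowest, median and highest values were 6.27, 6.98 and 8.81 in non-affected humerus and 5.51, 7.02 and 7.71 in affected humerus. Non-affected femur had 7.77, 8.02, 6.94 and 9.33, and affected femur 7.52, 9.22, 9.66 and 9.45. The highest affected humeral sample was above only 1 of the 4 affected femoral samples. Over the 13 humeral samples the 2 probe sets had a Pearson r of 0.97 (Spearman rho 0.98), with an adjusted permutation p of 3.30e-04 over 66 pairs; the unadjusted p of 1e-05 is the smallest that 100000 resamples can give.

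The remaining VEGFA probe sets moved little. Ssc.10015.1.A1_at had group means of 9.59 ± 0.18 (SD, n = 6) in non-affected humerus, 9.28 ± 0.39 (n = 7) in affected humerus, 9.09 ± 0.14 (n = 4) in non-affected femur and 9.14 ± 0.15 (n = 4) in affected femur. It was thus highest where the wide-ranging probe sets were not, and the 4 non-affected femoral samples, up to 9.20, lay below all 6 non-affected humeral samples, from 9.26. Ssc.15740.2.A1_at stayed between 5.35 and 6.59 in all samples, close to the filter, with group means from 5.79 to 6.09. Which VEGFA transcript forms the probe sets read was not examined.

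**Figure D1:**
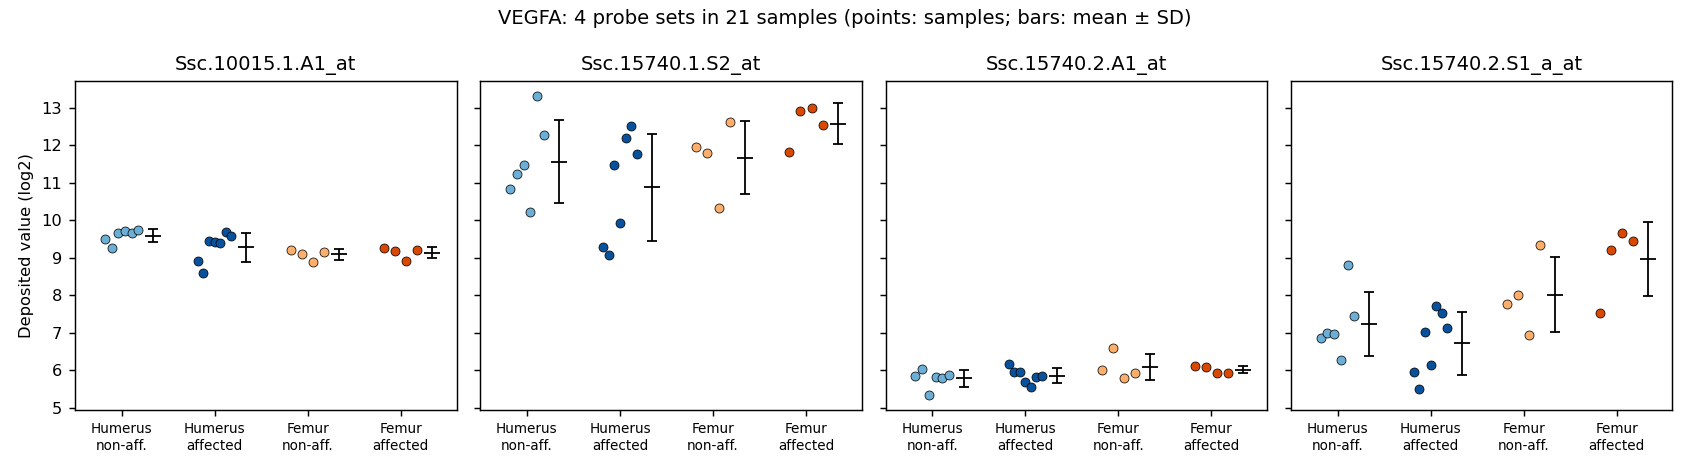
Deposited log2 values of the 4 VEGFA probe sets (1 panel each, shared vertical axis) in the 4 groups of site by status; points are samples and bars give the group mean ± SD. Ssc.15740.1.S2_at and Ssc.15740.2.S1_a_at spread over 4.24 and 4.14 log2 units, while Ssc.10015.1.A1_at and Ssc.15740.2.A1_at spread over 1.15 and 1.24.

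EGLN1, the oxygen sensor, separated affected from non-affected cartilage in the femur on both bright probe sets. On Ssc.6432.1.A1_at the non-affected femoral samples had 7.76, 7.86, 7.37 and 8.0, and the affected ones 8.63, 8.84, 8.73 and 8.48. Every affected sample was above every non-affected one. The difference was 0.92 ± 0.22 (SE, 95% CI 0.46 to 1.39), or 1.90-fold, with an adjusted p of 0.0467 in limma over 16799 probe sets. In the humerus the same probe set had a lowest, median and highest of 8.51, 8.85 and 9.23 in non-affected and 7.91, 8.58 and 9.04 in affected samples, which overlapped, with a difference of -0.24 ± 0.18 and an adjusted p of 0.819.

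The second EGLN1 probe set, Ssc.5854.1.S1_at, also separated the femoral samples. Non-affected femur had 8.96, 8.72, 8.55 and 8.84, and affected femur 9.21, 9.58, 9.82 and 9.34, again without overlap. The difference of 0.72 ± 0.21 (95% CI 0.29 to 1.15) had an adjusted limma p of 0.0821, so it did not pass. For both probe sets the exact two-sided permutation p was 0.0286, the smallest that 4 samples against 4 allow. The third EGLN1 probe set, Ssc.6432.2.S1_at, lay under the filter; its femoral values of 4.36, 4.08, 4.91 and 5.07 in non-affected and 5.32, 5.02, 5.01 and 5.20 in affected samples overlapped. The call for Ssc.6432.1.A1_at was lost in 10 of 21 fits that left out 1 sample, with adjusted p-values between 0.0270 and 0.139 over the 21, while the difference stayed between 0.80 and 1.01. The samples whose omission ended it were humerus non-affected 1, 4 and 6, humerus affected 3 and 4, femur non-affected 1 with 2, 3 and 4, and femur affected 2 and 3. It was also lost with the macrophage marker score as a covariate, where the difference was 0.66 and the adjusted p 0.249 and where 0.446% of all probe sets passed. Array median centring (adjusted p 0.0531), array weights (0.0943) and a fit of the femoral groups alone (0.155) ended it as well, with differences of 0.89, 0.91 and 0.92. Ssc.5854.1.S1_at passed as well with all 23 arrays counted singly (adjusted p 0.0499) and with the bone score as covariate (adjusted p 0.0117), where 3.24% of all probe sets passed.

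KDM3A encodes a histone demethylase that removes methyl groups from histone H3 lysine 9 and needs oxygen to do so. Its bright probe set, Ssc.9960.1.S1_at, had a lowest, median and highest of 7.84, 8.45 and 9.07 in non-affected humerus and 7.76, 8.25 and 8.67 in affected humerus. Non-affected femur had 9.43, 8.83, 8.57 and 9.18, and affected femur 9.27, 9.59, 9.32 and 9.57. Affected femur lay above all humeral samples, affected and non-affected alike. Affected minus non-affected was 0.43 ± 0.23 in the femur (adjusted limma p 0.288) and -0.18 ± 0.18 in the humerus (adjusted p 0.873). The dim KDM3A probe set stayed between the floor at 4 and 5.38, with femur non-affected 4 at the floor.

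P4HA2 encodes a catalytic subunit of the prolyl hydroxylase that stabilises the collagen triple helix. On Ssc.16984.1.S1_at, non-affected humerus had a lowest, median and highest of 11.59, 11.84 and 12.93, and affected humerus 10.74, 11.53 and 12.20. Non-affected femur had 12.35, 12.64, 11.56 and 12.44, and affected femur 12.32, 12.75, 12.69 and 12.78. In non-affected humerus 5 of 6 samples lay between 11.59 and 11.86, and humerus non-affected 5 stood apart at 12.93. Affected humerus was lower by -0.50 ± 0.23, with an unadjusted p of 0.0425 and an adjusted limma p of 0.759, so this difference did not pass. The other P4HA2 probe set, Ssc.12081.1.A1_at, gave -0.56 ± 0.25 with the same adjusted p. Without humerus non-affected 5 these differences were -0.31 and -0.38.

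CA12 encodes a membrane-bound carbonic anhydrase that helps cells export acid, and its values in the femur were mostly lower in affected samples. Its probe set, Ssc.10789.1.A1_at, had 8.61, 9.05, 9.32 and 8.42 in non-affected femur and 8.15, 7.96, 8.08 and 8.89 in affected femur. In the affected group 3 samples lay below all non-affected ones, and femur affected 4 lay among them. The difference was -0.58 ± 0.21 (95% CI -1.03 to -0.13), with an adjusted limma p of 0.153. Without femur affected 4 it was -0.79 and passed, with an adjusted p of 0.0455. In the humerus the values ran from 8.44 to 9.17 in non-affected and from 8.16 to 8.70 in affected samples, with a difference of -0.19 ± 0.17.

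**Figure D2:**
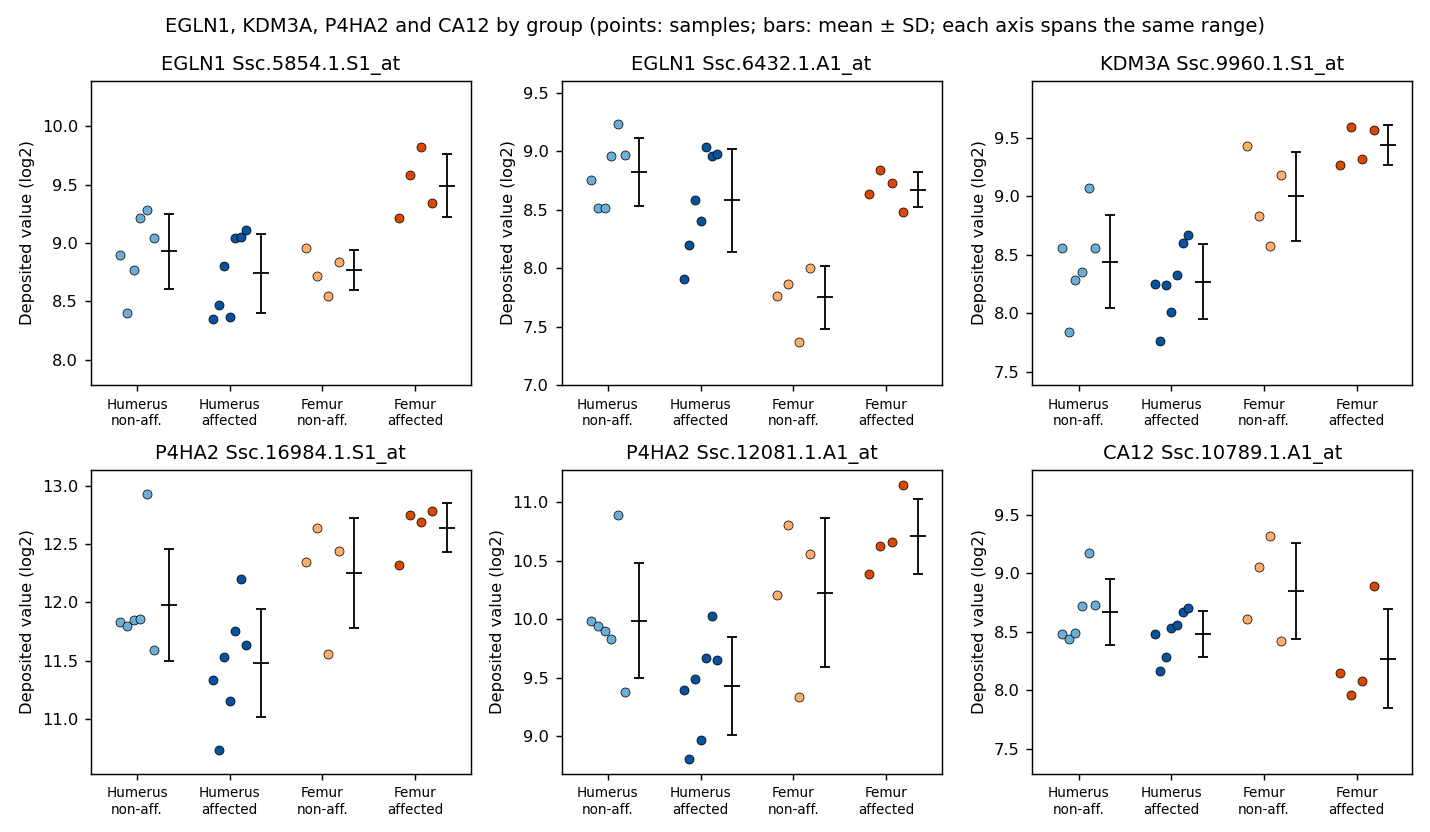
Deposited log2 values of the tested probe sets of EGLN1, KDM3A, P4HA2 and CA12 by group; points are samples, bars give the group mean ± SD, and each vertical axis spans the same number of log2 units. Both EGLN1 probe sets separate affected from non-affected femur, whereas Ssc.6432.1.A1_at has its lowest group in non-affected femur (mean 7.75) and Ssc.5854.1.S1_at its highest in affected femur (mean 9.49).

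Set side by side, affected minus non-affected was positive for 8 of the 10 tested probe sets in the femur, with a median of 0.46, and negative for 9 of 10 in the humerus, with a median of -0.27; the medians over all probe sets tested were 0.01 and -0.01. In the femur 1 of 10 passed, EGLN1 Ssc.6432.1.A1_at, against 1.14% of all probe sets tested (192 of 16799). In the humerus 0 of 10 passed, and so did 0% of all probe sets in limma, where 1100 had an unadjusted p under 0.05. The difference between the status effects of both sites was tested itself: 0 of 10 passed, against 0.268% of all probe sets. It was 1.16 ± 0.29 (adjusted p 0.0811) and 0.91 ± 0.26 (adjusted p 0.115) for the EGLN1 probe sets, and 1.04 ± 0.40 and 0.88 ± 0.37 for P4HA2 (adjusted p 0.190 and 0.216). For the wide-ranging VEGFA probe sets it was 1.57 ± 0.94 and 1.46 ± 0.75, with intervals from -0.38 to 3.52 and from -0.09 to 3.01, which include 0 as well as large differences. Of the 10 tested probe sets, only the 2 of EGLN1 had affected and non-affected femoral samples that did not overlap, against 8.08% of all probe sets tested.

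Femur against humerus was compared within each status, and these comparisons share their groups with those above. In non-affected cartilage 3 of 10 probe sets passed, against 36.6% of all: KDM3A was higher in the femur by 0.56 ± 0.21 (adjusted limma p 0.0425; 11.6% of all passed as higher), and EGLN1 Ssc.6432.1.A1_at and VEGFA Ssc.10015.1.A1_at were lower by -1.07 ± 0.21 (adjusted p 7.99e-04) and -0.50 ± 0.17 (adjusted p 0.0272; 25.0% of all passed as lower). The VEGFA call was lost when arrays were scaled to each other, at -0.36 with quantile normalisation and -0.32 with median centring, and with the same scalings VEGFA Ssc.15740.2.A1_at passed as higher, at 0.46 (adjusted p 0.0286) and 0.48 (adjusted p 0.0232). The EGLN1 call was kept in all 21 fits that left out a sample. The VEGFA call was kept in 17 of them and lost without humerus non-affected 4 or 6 or femur non-affected 3 or 4, and the KDM3A call was kept in 14 and lost without humerus non-affected 2, 3, 4 or 6 or femur non-affected 1 with 2, 3 or 5 (adjusted p up to 0.155). KDM3A also did not pass with only the non-affected groups in the fit (adjusted p 0.0858) or with the bone score as covariate (0.34, adjusted p 0.145). The other EGLN1 probe set, Ssc.5854.1.S1_at, differed by -0.16 ± 0.19 (adjusted p 0.518), and with the bone score it passed as lower (-0.39, adjusted p 0.0369).

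In affected cartilage 6 of 10 probe sets passed, all higher in the femur, against 38.5% of all probe sets, with 13.9% higher and 24.6% lower. VEGFA Ssc.15740.2.S1_a_at was higher by 2.25 ± 0.52, or 4.75-fold (adjusted limma p 0.00243), and Ssc.15740.1.S2_at by 1.68 ± 0.65, or 3.21-fold (adjusted p 0.0468). KDM3A was higher by 1.17 ± 0.20 (adjusted p 2.88e-04) and P4HA2 by 1.28 ± 0.28 and 1.16 ± 0.26 (adjusted p 0.00161 and 0.00189). EGLN1 Ssc.5854.1.S1_at was higher by 0.75 ± 0.18 (adjusted p 0.00361), while Ssc.6432.1.A1_at differed by 0.09 ± 0.20. For KDM3A, both P4HA2 probe sets and EGLN1 Ssc.5854.1.S1_at, 4 of 10, the affected samples of both sites did not overlap, against 20.2% of all probe sets. The call for Ssc.15740.1.S2_at was kept in only 9 of the 21 fits that left out a sample, with adjusted p-values up to 0.110; it was lost without any of humerus non-affected 1, 2, 3 and 6, humerus affected 1, 2 and 4, femur non-affected 1 with 2 and 3, and femur affected 2, 3 and 4. The other 5 calls were kept in all 21. Apart from the marker scores, the call for Ssc.15740.1.S2_at was also lost with no filter, with trend and robust variances, with all 23 arrays, with only the affected groups in the fit and with array weights (1.36), at adjusted p-values from 0.0519 to 0.124. The count of 6 was the same under quantile normalisation and median centring, although these scalings moved the median over all probe sets from -0.11 to 0.03 and 0.05 and turned the split over all calls from 2329 higher and 4137 lower to 3601 and 2753, and to 3696 and 2649. In non-affected cartilage they moved the median from -0.12 to 0.04 and 0.06 and the split from 1942 higher and 4207 lower to 3298 and 2748, and to 3587 and 2636.

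**Figure D3:**
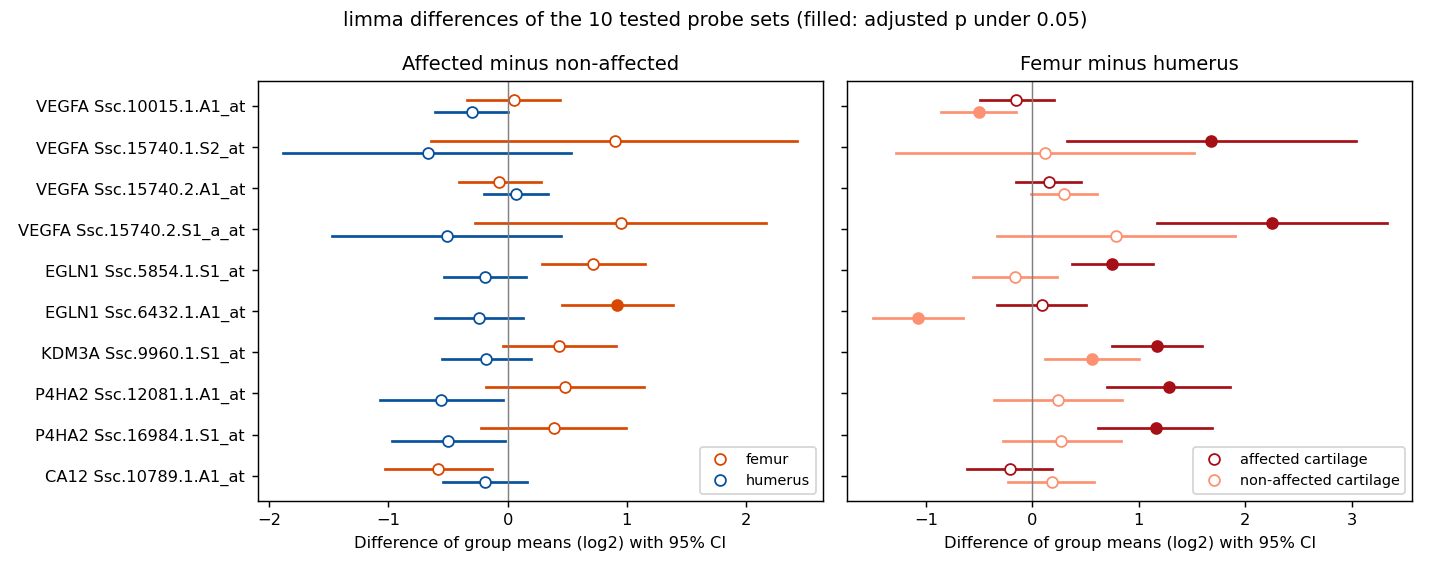
limma differences with 95% confidence intervals for the 10 tested probe sets: affected minus non-affected within each site (left) and femur minus humerus within each status (right), in log2 units; filled points passed an adjusted p of 0.05. On the left only EGLN1 Ssc.6432.1.A1_at in the femur is filled, and on the right 6 points are filled for affected and 3 for non-affected cartilage.

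Markers of several other cell types also differed between affected femur and affected humerus. The macrophage score, the mean of 8 scaled markers, ran from -1.87 to -0.67 in affected femur and from -0.15 to 1.48 in affected humerus, without overlap. A fit with this score therefore cannot fully separate the site from the macrophage level. With that score as a covariate 0 of 10 member probe sets passed, and 3.12% of all probe sets in place of 38.5%: KDM3A differed by 0.48 (adjusted limma p 0.237), VEGFA Ssc.15740.2.S1_a_at by 1.15 (adjusted p 0.356) and Ssc.15740.1.S2_at by 0.07 (adjusted p 0.971). The bone score, of 6 markers, ran from -0.71 to 0.45 in affected femur and from -0.61 to 1.03 in affected humerus, which overlapped, and with it only KDM3A passed (0.76, adjusted p 0.0121), against 22.9% of all probe sets. The endothelial markers (8 of 9 on the array) had a summed level between 8.81 and 10.43 in affected femur, where CDH5 and VWF each had a sample at the floor, and between 10.48 and 12.10 in affected humerus. Osteoclast markers (5 of 6 on the array) lay between 11.12 and 12.18 against 12.41 and 14.82, and adipocyte markers (3 of 6) between 8.16 and 8.51 against 8.63 and 11.97. Neutrophil markers (7 of 9) lay between 6.98 and 11.46 against 8.78 and 14.99, with medians of 7.29 and 14.05. The summed bone markers (7 of 8) lay between 11.31 and 12.67 against 12.06 and 15.16. In non-affected cartilage the bone markers lay between 11.71 and 12.56 in the femur and between 13.50 and 14.96 in the humerus, without overlap. The macrophage, neutrophil, endothelial, osteoclast and adipocyte levels overlapped there. The part of the neutrophil, endothelial, osteoclast and adipocyte markers in the result was not tested. Within the femur the macrophage score had a mean of -1.32 in affected samples (-1.87 to -0.67) and -0.11 in non-affected samples (-0.85 to 0.50). These ranges overlapped. With that score as a covariate, 0 of 10 member probe sets passed between affected and non-affected femur, against 0.446% of all probe sets. KDM3A then differed by 0.01 and P4HA2 Ssc.12081.1.A1_at by 0.07, against 0.43 and 0.48 without the score. EGLN1 Ssc.6432.1.A1_at differed by 0.66 and CA12 by -0.62, against 0.92 and -0.58.

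A few samples stood at the ends for most members. Humerus non-affected 5 was the highest of the 13 humeral samples on 8 of the 10 tested probe sets, and humerus affected 2 the lowest on 7. Among the 8 femoral samples, femur non-affected 4 was the lowest on 9 of 10, and on CA12 it was the highest. The same few samples were thus high or low for several genes at once. In humerus non-affected 5 the summed macrophage and endothelial markers were 9.13 and 9.48, the lowest of the 13 humeral samples. In humerus affected 2 they were 13.61 and 12.1, and in femur non-affected 4 12.19 and 10.59, the highest of the femur. The summed chondrocyte markers were 15.21, 14.73 and 14.66 in these samples. Correlations of the members with these marker levels over the humeral samples are given further below. The cause of the values in these single samples was not tested.

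Within the humerus most members rose and fell together from sample to sample. Of 66 pairs of the 12 probe sets, 42 passed an adjusted permutation p of 0.05 with Pearson's r, all positive, and 21 with Spearman's rho. The 66 include pairs of probe sets of the same gene. How many pairs of other probe sets on these arrays would pass was not tested, so the count cannot be called particular to these genes. EGLN1 Ssc.6432.1.A1_at and VEGFA Ssc.15740.1.S2_at had r = 0.83 and rho = 0.86 (adjusted permutation p 0.00440 and 0.00475), KDM3A and EGLN1 Ssc.5854.1.S1_at r = 0.82 and rho = 0.84 (adjusted p 0.00440 and 0.00869), and the P4HA2 probe sets r = 0.97 and rho = 0.93 (adjusted p 3.30e-04 and 0.00132). VEGFA Ssc.15740.1.S2_at and P4HA2 Ssc.16984.1.S1_at had r = 0.80 (adjusted p 0.00470), but rho was 0.59 (adjusted p 0.0796). With the status means taken off 34 pairs passed. VEGFA Ssc.15740.2.A1_at had a negative r with every other probe set, from -0.48 to -0.16, and passed with none. The dim KDM3A probe set, Ssc.22754.1.A1_at, had r from -0.19 to 0.42 and also passed with none.

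Some of the positive coefficients rested on few samples. Without the 2 samples farthest from the median of the first probe set, 8 pairs passed. Leaving these out narrows the range of values and leaves 11 samples, which can itself lower the count. For EGLN1 Ssc.6432.1.A1_at with VEGFA the r was then 0.68, for KDM3A with EGLN1 Ssc.5854.1.S1_at 0.88, for VEGFA with P4HA2 0.70, and for KDM3A with P4HA2 Ssc.16984.1.S1_at, which had been 0.79, it was 0.40. Leaving out only humerus non-affected 5 gave 0.79, 0.80, 0.73 and 0.63. CA12 in the humerus had r = 0.84 with KDM3A and 0.67 with VEGFA Ssc.15740.1.S2_at, and 0.58 and 0.56 without the 2 farthest samples. With EGLN1 Ssc.5854.1.S1_at and Ssc.6432.1.A1_at its r was 0.71 and 0.73, and then 0.81 and 0.78. With P4HA2 Ssc.16984.1.S1_at and Ssc.12081.1.A1_at it fell from 0.81 and 0.72 to 0.30 and 0.07. With VEGFA Ssc.15740.2.S1_a_at it fell from 0.74 to 0.19.

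**Figure D4:**
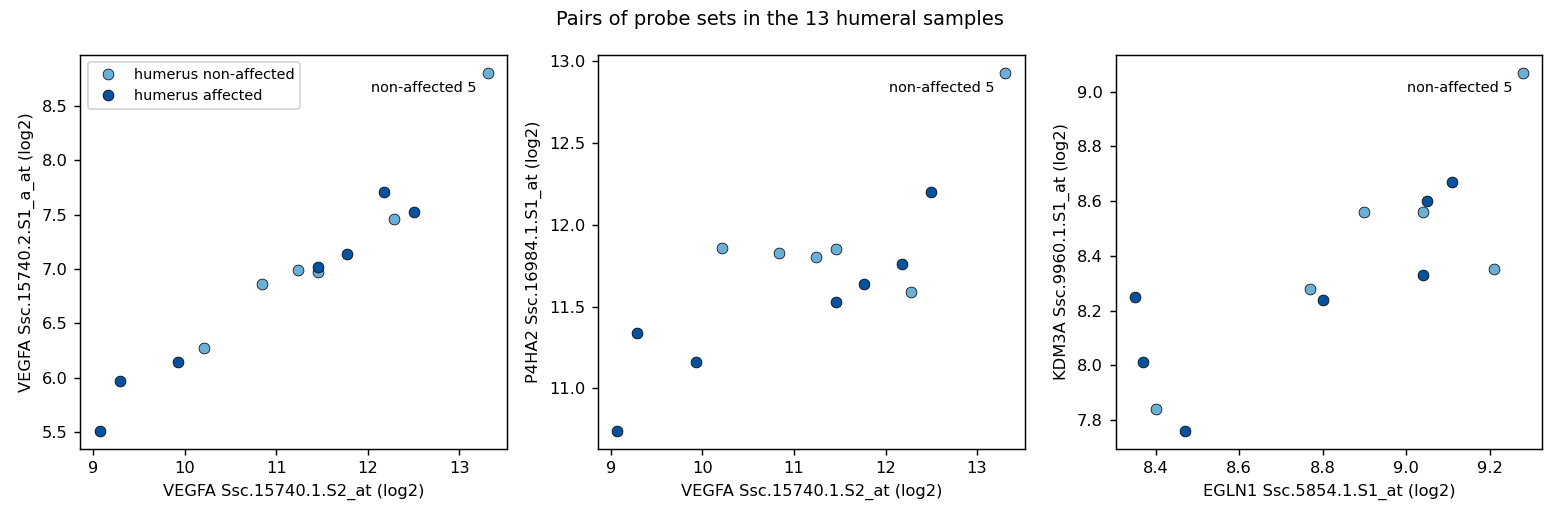
Deposited log2 values of 3 pairs of probe sets in the 13 humeral samples (light: non-affected; dark: affected). The VEGFA pair lies close to a line (r = 0.97), VEGFA with P4HA2 has r = 0.80 (0.73 without the sample marked non-affected 5), and EGLN1 with KDM3A has r = 0.82.

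The members' brightest probe sets were also set against the summed level of 5 marker lists in the 13 humeral samples, a relation added after the data were seen. All 20 coefficients with the macrophage, neutrophil, bone and endothelial lists were negative, and all 5 with the chondrocyte list were positive, from 0.48 to 0.66. Of 25 relations 6 passed an adjusted permutation p of 0.05 with Pearson's r and 0 with Spearman's rho, where 7 had an unadjusted p under 0.05. KDM3A had r = -0.81 with the macrophage and -0.80 with the endothelial markers (adjusted permutation p 0.01 for each), with rho of -0.74 and -0.77 (adjusted p 0.0674 for each). Without the 2 samples farthest from the median of the marker level these r were -0.68 and -0.72. P4HA2 had r = -0.76 with the macrophage markers (adjusted p 0.0287) and rho = -0.55, and -0.54 without the 2 farthest samples. EGLN1 had r = 0.66 with the chondrocyte markers (adjusted p 0.0497; rho 0.66, adjusted p 0.126), and 0.70 without the 2 farthest samples. The others that passed were P4HA2 with the endothelial (r = -0.68, rho = -0.51) and CA12 with the macrophage markers (r = -0.69, rho = -0.42), each with an adjusted permutation p of 0.0497. For VEGFA the r was -0.57 with the macrophage and -0.51 with the endothelial markers (adjusted p 0.117 and 0.126).

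The genes most like each member were sought over all 21 samples after the mean of each group was taken off, among 5900 other genes. For VEGFA Ssc.15740.1.S2_at they were ADM (r = 0.97), the vasodilator peptide adrenomedullin and a known HIF target, then ME1 (0.91), PPP1R3B (0.90), SLC2A5 (0.90) and NID2 (0.88). For EGLN1 they were NDEL1 (0.86) and, at 0.83 each, LDHA, which makes lactate at the end of glycolysis, TERF2IP, PGM3 and PPP1R15B. For KDM3A they were ZNF395 (0.89), a listed HIF target, and FAF2, HOXA3, COL7A1 and ZNF385D (0.87 each), and for P4HA2 PPP1R3B (0.88), VWA1 and SLC25A33 (0.87), SRPX2 (0.86) and LOC100523244 (0.85). For CA12 they were NEK9 (0.80), BTBD9 (0.78) and BLMH, VSTM4 and ENPP2 (0.73). These coefficients are a description, since the samples share their arrays' overall signal. VEGFA, EGLN1, KDM3A and P4HA2 had r between 0.62 and 0.80 among themselves on this measure, and CA12 between 0.16 and 0.29 with the others, lower than in the humerus alone. Many other genes were as alike. Among 5904 genes, other members included, the first 4 ranked each other between 21 (VEGFA for P4HA2) and 247 (EGLN1 for P4HA2). Ranks that involve CA12 ran from 854 to 2189.

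Other genes of the pathway were read from 8 lists, chosen like the members with earlier results of these data known. Of 114 listed genes 64 were on the array and 58 were tested. In the femur affected minus non-affected was positive for 42 of 58, with a median of 0.20 against 0.01 over all probe sets, and 0 passed as higher and 1 as lower. That gene was CA11, a carbonic anhydrase relative without enzyme activity, at 7.17 in affected and 8.44 in non-affected femur (-1.27 ± 0.29, adjusted limma p 0.0359). The count of 1 in either direction was 0 without femur non-affected 1 with 2, 3 or 4 or femur affected 2 or 3, 2 without femur affected 4, femur non-affected 5 or humerus non-affected 5, and 5 without femur affected 1. The count was also 0 with array weights and with only the femoral groups in the fit, 4 with all 23 arrays and 3 with the bone score as covariate. In the lists where no gene passed, the smallest p belonged to CITED2, a HIF target that feeds back on HIF, at 8.70 in affected and 10.02 in non-affected femur (-1.32 ± 0.35, adjusted p 0.0633), CUL2, a scaffold of the ligase that degrades HIF (0.82 ± 0.26, adjusted p 0.106), and SLC16A3, the lactate exporter (1.09 ± 0.43, adjusted p 0.169). They were followed by PLOD3 (0.28 ± 0.15), KDM2A (0.31 ± 0.18), ARNT2 (-0.26 ± 0.21) and NRP2 (0.10 ± 0.16), with adjusted p-values from 0.295 to 0.756. CA11, CITED2, KDM2A and SIAH2 were the 4 of 58 listed genes whose affected and non-affected femoral samples did not overlap, against 8.08% of all probe sets tested. HIF1A itself, the main oxygen-regulated subunit, differed by 0.28 ± 0.36 (adjusted p 0.690).

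In the humerus 37 of the 58 listed genes were negative, with a median of -0.08, and 0 passed in either direction. The smallest p belonged to ANGPTL4, a secreted regulator of lipid use, which was higher in affected humerus by 1.07 ± 0.34 with an adjusted limma p of 0.641; in the femur it was 1.4 ± 0.44 (adjusted p 0.104). The smallest p of the other lists belonged to ARNT (0.38), PFKP (-0.49), PLOD3 (-0.27), CA3 (1.07), KDM4B (0.20), CUL2 (-0.17) and VEGFB (-0.10), with adjusted p-values from 0.709 to 0.894. Among glycolysis genes, 14 of 16 differences were positive in the femur, with a median of 0.22, and 12 of 16 negative in the humerus, with a median of -0.15. SLC2A1, the main glucose importer, differed by 0.78 ± 0.37 in the femur and by -0.68 ± 0.29 in the humerus, and the test of the difference between sites gave 1.46 ± 0.47 with an adjusted p of 0.145. Over all lists 0 of 58 passed that test, with a median of 0.30. The smallest p of the other lists belonged to CITED2 (-1.89 ± 0.44, adjusted p 0.0763), CA11 (-1.19), CUL2 (0.99), PLOD3 (0.55), ARNT2 (-0.51), KDM2A (0.38) and NRP2 (0.08), with adjusted p-values from 0.138 to 0.843 for the last 6.

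**Figure D5:**
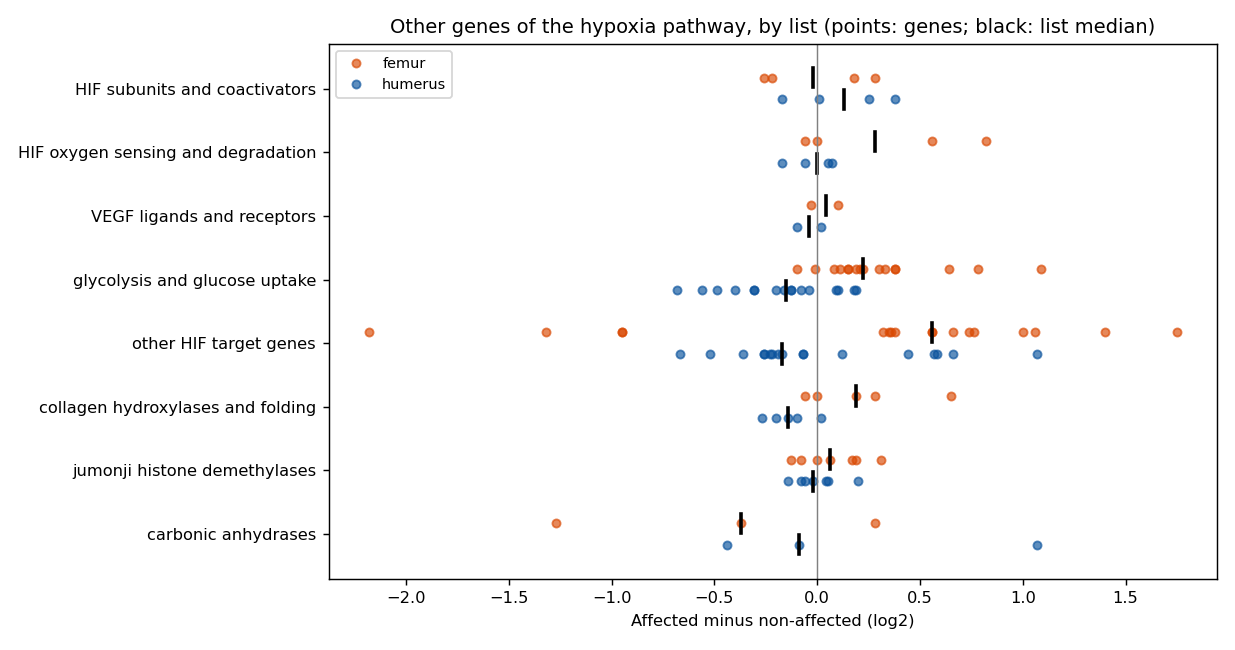
Affected minus non-affected (log2) for 58 other genes of the hypoxia pathway in 8 lists, in the femur (orange) and the humerus (blue); each point is a gene and the black bar is the list's median. The glycolysis list has a median of 0.22 in the femur and -0.15 in the humerus, and CA11, at -1.27 in the femur, is the only gene that passed.

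Between sites the listed genes moved in both directions. In affected cartilage 17 of 58 passed as higher in the femur and 7 as lower, against 13.9% and 24.6% of all probe sets. Glycolysis and glucose uptake gave 7 higher of 16 and 0 lower, led by PKM (0.68 ± 0.13, adjusted limma p 5.04e-04), SLC2A1 (1.56 ± 0.33, adjusted p 0.00121), SLC16A3 (1.57 ± 0.38, adjusted p 0.00330), PFKP (0.77) and ENO1 (0.47). Listed HIF targets gave 4 higher and 4 lower. The 5 with the smallest p were CXCR4 (-3.16), CITED2 (-1.62), ZNF395 (1.26), HMOX1 (-2.80) and VLDLR (-0.90), and ADM, the gene most like VEGFA, was higher by 2.20. CXCR4, a chemokine receptor, and HMOX1, which breaks down haem, are also abundant in blood-derived cells. The macrophage markers were lower in the same samples. Counts over the listed genes with marker scores as covariates are given below. The part of the mix of cells in the differences of these single genes was not tested.

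In the smaller lists, the genes that passed as higher in affected femur were EGLN2, a second HIF prolyl hydroxylase (0.48), SIAH2 (0.59), VEGFB (0.57), the lysyl hydroxylase PLOD1 (0.76), the histone demethylase KDM2A (0.55) and the carbonic anhydrase CA9, a known HIF target (1.29). Those lower were ARNT2, a dimer partner of HIF (-0.54), JARID2 (-0.44) and CA3 (-1.90). With the macrophage score as a covariate 0 of the 58 passed and with the bone score 8, and without femur affected 3 the 24 calls fell to 13.

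In non-affected cartilage 6 passed as higher and 10 as lower, against 11.6% and 25.0% of all probe sets. Higher in the femur were CA11 (1.49 ± 0.27, adjusted limma p 4.69e-04), PKM (0.56), VEGFB (0.51), PLOD1 (0.47) and EGLN2 (0.42). Listed HIF targets gave 1 higher, which was not among the 5 with the smallest p, and 6 lower. Lower were CUL2 (-0.96), JARID2 (-0.69), the glycolytic enzymes GAPDH (-0.34) and LDHA (-0.54), and, as the 5 HIF targets with the smallest p, RORA (-1.08), INSIG2 (-1.36), ERO1A (-1.0), VLDLR (-1.15) and CXCR4 (-1.55).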

How the data were processed

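RNA of 23 cartilage samples was read on Affymetrix Porcine Genome Arrays. The authors deposited 1 log2 value per probe set and array; image analysis used GCOS 1.1.1 per the submitters' processing notes, and their normalisation was not given in the sources used here. Values were used as deposited: 24123 probe sets from 4.00 to 17.6, of which 124 are controls. Humerus affected 5 and 6 (SD of the difference 0.107) and femur non-affected 1 and 2 (0.213) differed by less than a bound of 0.25 and were averaged. Arrays are numbered within a group in the order of deposit. Control probe sets and those with a mean under the 30th percentile were left out, and 16799 were tested.

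limma 3.58.1 in R 4.3.3 fitted the 4 group means (lmFit, eBayes), and p-values were adjusted by Benjamini and Hochberg over all probe sets tested within each comparison, with a call at an adjusted p under 0.05. Exact permutation tests and correlations by permutation (100000 resamples, adjusted over 66 pairs) used Python 3.11.15 with numpy 2.4.6 and scipy 1.17.1, and matplotlib 3.10.9 drew the plots. The fit was tested on simulated data. Gene symbols come from the platform annotation, which names 10099 probe sets with 1 symbol, 198 with several and the other 13826 with none; only the first kind was used.

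Named were every probe set of the 5 genes, the 5 genes most like each (highest r of deviations from group means, brightest probe set), and, from each pathway list, called genes up to 5 per list by smallest p, or values of the smallest p where none passed. HIF1A, SIAH2 and ANGPTL4 in the femur, SLC2A1 within sites and ADM between sites fall outside it and were chosen after their values were seen. The members and lists were chosen with earlier results of these data known. Alternatives covered the filter, scaling, floor, variance model, array weights, close pairs, samples in the fit, probe sets per gene, marker scores as covariates and leaving out each sample.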

Additional observations from a re-analysis of the deposited data

Results flagged for a closer look

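Among 48 groups of a member probe set, 2 had a sample that stood apart by Dixon's test, which chance alone does in about 1 of 20 groups. P4HA2 Ssc.16984.1.S1_at was 12.93 in humerus non-affected 5, and the next highest non-affected humeral sample had 11.86. VEGFA Ssc.15740.2.A1_at was 5.35 in humerus non-affected 3, and the next lowest had 5.80.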

How the results depend on the processing

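No paired analysis was possible because the labels carry no replicate numbers and do not tell which animals were sibs. In femoral status, the count of member probe sets that passed, 1 in the report, was 0 with array median centring, with array weights, with only the femoral groups in the fit, with 1 probe set per gene (which leaves out the called EGLN1 probe set) and with the macrophage score as covariate, and 2 with all 23 arrays and with the bone score; it was 1 with the other settings and between 0 and 2 when each sample was left out (2 without femur affected 4, where CA12 passed). In humeral status it was 0 throughout, and in the interaction it was 1 with all 23 arrays (EGLN1 Ssc.6432.1.A1_at, 1.1, adjusted limma p 0.0452) and 0 otherwise. For the site in non-affected cartilage, 3 in the report, it was 1 with 1 probe set per gene and between 1 and 3 when each sample was left out. For the site in affected cartilage, 6 in the report, it was 0 with the macrophage score and 1 with the bone score. Within the other counts single calls changed: VEGFA Ssc.15740.1.S2_at was lost in affected cartilage under 5 other settings, and KDM3A was lost and EGLN1 Ssc.5854.1.S1_at gained in non-affected cartilage with the bone score, as given beside those results. Of the 66 correlations within the humerus, 42 passed in the report and 8 without the 2 samples farthest from the median; fewer samples also raise the p.

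Signs turned in differences that had not passed. With the macrophage score as covariate, femoral status gave -0.13 for VEGFA Ssc.10015.1.A1_at and -0.09 for VEGFA Ssc.15740.1.S2_at and for P4HA2 Ssc.16984.1.S1_at, humeral status gave 0.00 for KDM3A, and the site gave -0.10 for VEGFA Ssc.15740.1.S2_at in non-affected and -0.35 for EGLN1 Ssc.6432.1.A1_at in affected cartilage. With the bone score, humeral status gave 0.07 and 0.08 for VEGFA Ssc.15740.1.S2_at and Ssc.15740.2.S1_a_at, 0.04 for EGLN1 Ssc.5854.1.S1_at and 0.05 for KDM3A; the site gave -0.61 for VEGFA Ssc.15740.1.S2_at and -0.05 and -0.04 for P4HA2 in non-affected, and -0.28 for EGLN1 Ssc.6432.1.A1_at in affected cartilage. With array median centring the site gave 0.02 for EGLN1 Ssc.5854.1.S1_at in non-affected and 0.01 for VEGFA Ssc.10015.1.A1_at in affected cartilage, and with array weights 0.00 for EGLN1 Ssc.6432.1.A1_at there. Leaving out each sample, femoral status ran from -0.01 to 0.12 for VEGFA Ssc.10015.1.A1_at and from -0.16 to 0.10 for Ssc.15740.2.A1_at, which ran from -0.01 to 0.12 in humeral status and from -0.24 to 0.03 in the interaction. The site ran from -0.20 to 0.57 for VEGFA Ssc.15740.1.S2_at in non-affected and from -0.02 to 0.17 (0.16 without humerus affected 8) for EGLN1 Ssc.6432.1.A1_at in affected cartilage. The cause of these changes was not tested.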
